A study of Saccharomyces cerevisiae with 3 samples.

Results

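On a tiling array of Saccharomyces cerevisiae chromosome VI, the 250 probe sets c6Mbo0251 to c6Mbo0500 were taken by the number in their identifier and set beside the other 1000. This number was read as order along the chromosome, which no source used here states, and the coordinates and genes of the probe sets were not analysed here. A probe set is a small group of array probes whose signals were combined into 1 value, and none spans a cutting site of the restriction enzyme MboI. The 3 samples, with 1 column each, were DNA cleaved by Nup2-MN for 5 min at 30 °C, DNA cleaved by H2b-MN for 1 min on ice, and uncleaved DNA. In all 3 samples the yeast grew on 2% raffinose and was then induced by 2% galactose over 1 h. The strain background, the promoter that drives each fusion and the strain of the uncleaved sample are not given in the sources used here.

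In chromatin endogenous cleavage, a protein is expressed as a fusion with micrococcal nuclease (MN), which calcium switches on, so that DNA close to the protein is cut inside the cell. Nup2 is a mobile nucleoporin of the nuclear basket, the side of the nuclear pore that faces the chromatin, and it takes part in the recycling of nuclear import receptors. H2b is a core histone and part of every canonical nucleosome, so its fusion can cut along most of the genome. Whether cutting raises or lowers the array signal is not given in the sources used here, so values below are called higher or lower and not more or less cleaved.

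Each value is the authors' mean log2 signal over 3 independent experiments. The spread of those experiments was not analysed here. Every difference below is therefore a single value per probe set, was not tested, and cannot be set against the error between experiments. SDs are over probe sets of the same arrays, which are not replicates.

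The 250 probe sets had a median log2 signal of 7.16 in Nup2-MN, 7.39 in H2b-MN and 7.46 in uncleaved DNA. The other 1000 probe sets had medians of 7.52 in Nup2-MN, 7.62 in H2b-MN and 7.62 in uncleaved DNA. Signals ran from 4.72 to 10.33 in Nup2-MN, from 4.70 to 10.42 in H2b-MN and from 4.73 to 9.99 in uncleaved DNA. At the lower end of the numbering, c6Mbo0251 read 6.26 in Nup2-MN, 6.22 in H2b-MN and 6.66 in uncleaved DNA. Its neighbour outside, c6Mbo0250, read 5.02 in Nup2-MN, 5.05 in H2b-MN and 4.82 in uncleaved DNA. At the upper end, c6Mbo0500 read 8.29 in Nup2-MN, 8.53 in H2b-MN and 9.20 in uncleaved DNA. c6Mbo0501, just outside, read 7.39 in Nup2-MN, 7.96 in H2b-MN and 8.43 in uncleaved DNA. The upper boundary thus fell inside a stretch that was lower in both cleaved samples.

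Nup2-MN was compared with uncleaved DNA first, since the study maps where Nup2 meets the chromosome. Most of the 250 probe sets were lower in Nup2-MN, and a few short stretches were much higher. A log2 difference above 0 was seen at 84 of the 250 (33.6%), against 42.7% of the other 1000 probe sets. This share was 32.8% to 52% in the other 4 blocks of 250 consecutive numbers. The median log2 difference was -0.32, against -0.12 over the other 1000 probe sets and -0.28 to 0.02 in the other 4 blocks. The gap of -0.21 to the other 1000 depended on where the block was cut, since it was -0.067 with the block moved up by 50 numbers. With the block moved down by 50 it stayed at -0.21. Of the 250, 17 (6.80%) were at least 2-fold higher, the same share as over the whole array (6.80%). At least 2-fold lower were 9 (3.60%), against 1.84% over the whole array. With each column centred on its own median, which adds 0.15 to every Nup2-MN minus uncleaved difference, the counts were 20 higher (8.0%, against 10.4% of the other 1000) and 3 lower (1.2%, against 0.50%). Quantile normalization of the 3 columns gave 17 higher (6.8%, against 7.9% of the other 1000) and 4 lower (1.6%, against 0.9%). Removal of the trend with signal gave 19 higher (7.6%, against 9.2%) and 5 lower (2%, against 0.5%). The 17 to 9 balance of higher to lower probe sets (65.4% higher) thus shifted to 87.0%, 81.0% and 79.2% higher under those settings. At a 1.5-fold threshold it turned, with 33 higher and 89 lower (27.0% higher). There 13.2% of the 250 were higher, against 17.9% of the other 1000, and 35.6% were lower, against 19.8%.

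**Figure D1:**
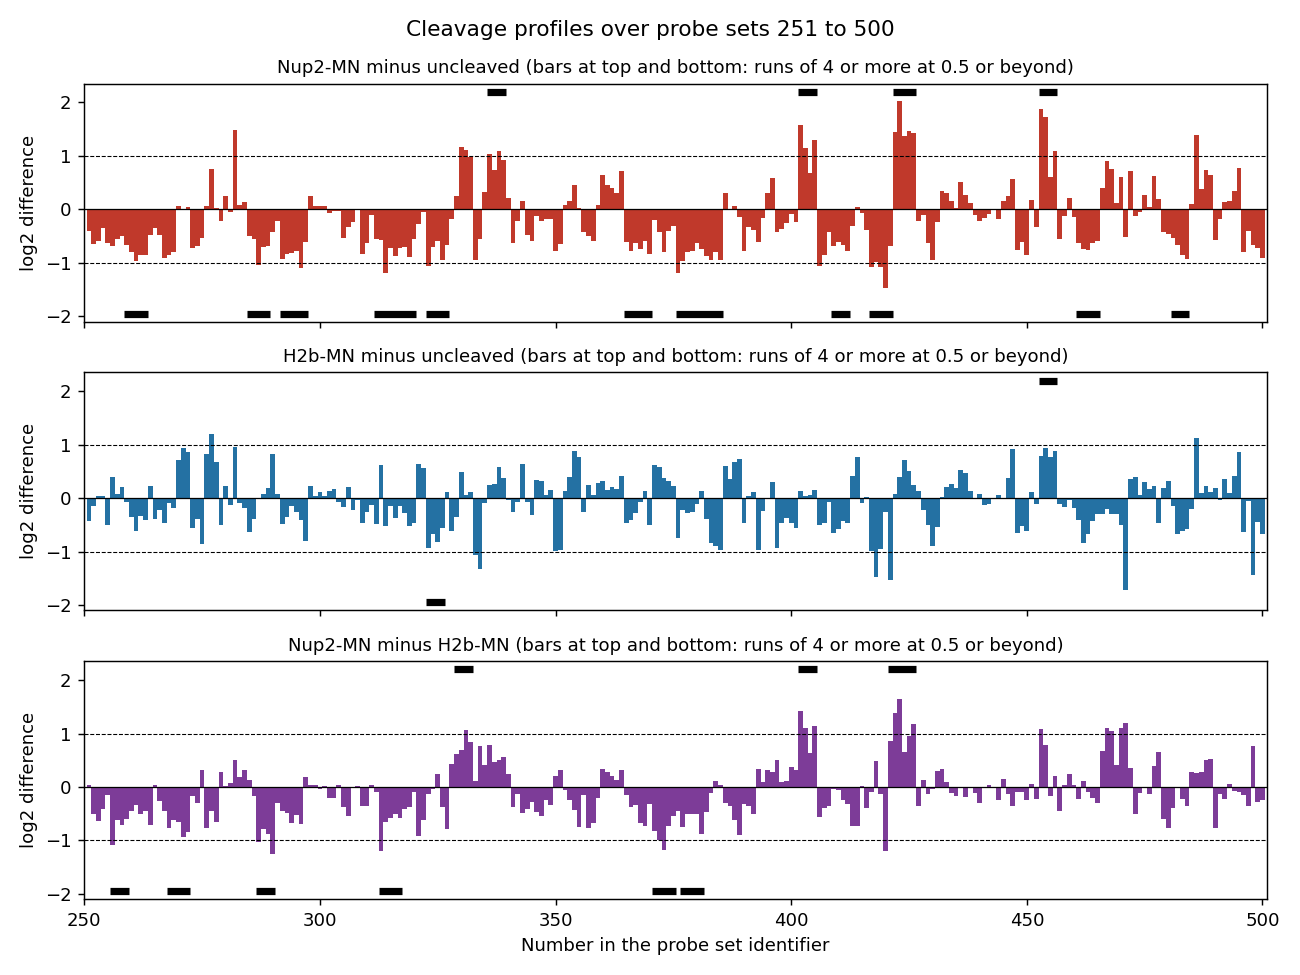
Log2 difference of each of the 250 probe sets (y axis) against the number in its identifier (x axis) for the 3 comparisons; dashed lines mark 2-fold and black bars mark runs of 4 or more neighbours at 0.5 or beyond on 1 side. In the Nup2-MN minus uncleaved panel, 4 higher and 11 lower runs are marked, while the H2b-MN minus uncleaved panel holds 1 run on each side.

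The higher probe sets came in groups. A run is here 4 or more neighbouring numbers that all differ by at least 0.5 on the same side. Nup2-MN minus uncleaved had 4 higher runs, c6Mbo0336 to c6Mbo0339, c6Mbo0402 to c6Mbo0405, c6Mbo0422 to c6Mbo0426 and c6Mbo0453 to c6Mbo0456, which together held 17 probe sets, 13 of them at least 2-fold higher. The 4 probe sets at least 2-fold higher outside these runs were c6Mbo0282, c6Mbo0330, c6Mbo0331 and c6Mbo0486, named after their values were seen. At 0.5 or more, 36 of the 250 (14.4%) were higher and 103 (41.2%) were lower, against 19.2% and 28.0% over the whole array.

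Probe sets c6Mbo0422 to c6Mbo0426 formed the longest higher run. Its highest member, c6Mbo0423, was also the highest of the 250 in this comparison, with a log2 signal of 8.42 in Nup2-MN, 6.78 in H2b-MN and 6.39 in uncleaved DNA, a 4.08-fold difference between Nup2-MN and uncleaved DNA. c6Mbo0422 read 7.03 in Nup2-MN, 5.66 in H2b-MN and 5.58 in uncleaved DNA. At these 2 probe sets the Nup2-MN signal stood apart from the other samples, which lay within 0.39 of each other. c6Mbo0424 read 9.53 in Nup2-MN, 8.87 in H2b-MN and 8.16 in uncleaved DNA. c6Mbo0425 read 10.01 in Nup2-MN, 9.05 in H2b-MN and 8.54 in uncleaved DNA. The brightest of the run in all 3 samples was thus c6Mbo0425. c6Mbo0426 read 9.41 in Nup2-MN, 8.23 in H2b-MN and 7.99 in uncleaved DNA. All 5 were highest in Nup2-MN and lowest in uncleaved DNA, although their uncleaved levels ranged from 5.58 to 8.54. Nup2-MN exceeded uncleaved DNA by 1.37 to 2.03 and H2b-MN exceeded it by 0.07 to 0.71. The difference ended sharply, since the next probe set, c6Mbo0427, read 5.50 in Nup2-MN, 5.85 in H2b-MN and 5.72 in uncleaved DNA.

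The 5 numbers just before, c6Mbo0417 to c6Mbo0421, were lower in both cleaved samples. c6Mbo0417 read 6.90 in Nup2-MN, 6.99 in H2b-MN and 7.97 in uncleaved DNA. c6Mbo0418 read 7.28 in Nup2-MN, 6.80 in H2b-MN and 8.27 in uncleaved DNA. c6Mbo0419 read 6.80 in Nup2-MN, 6.92 in H2b-MN and 7.87 in uncleaved DNA. The cleaved samples were alike at c6Mbo0417 and c6Mbo0419, within 0.13 of each other. They parted at the last 2 members of the stretch. c6Mbo0420, the lowest of the 250 in Nup2-MN minus uncleaved (-1.46), read 6.62 in Nup2-MN, 7.82 in H2b-MN and 8.08 in uncleaved DNA. c6Mbo0421 read 7.95 in Nup2-MN, 7.10 in H2b-MN and 8.63 in uncleaved DNA, so that here H2b-MN was the lower sample. From c6Mbo0420 to c6Mbo0421 the Nup2-MN minus H2b-MN difference stepped by 2.05 (-1.20 at c6Mbo0420 and 0.85 at c6Mbo0421), the largest upward step between neighbours among the 250 (median size of a step 0.24). The stretch from c6Mbo0417 to c6Mbo0426 was known from an earlier look at these data and its sizes are given as a description.

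**Figure D2:**
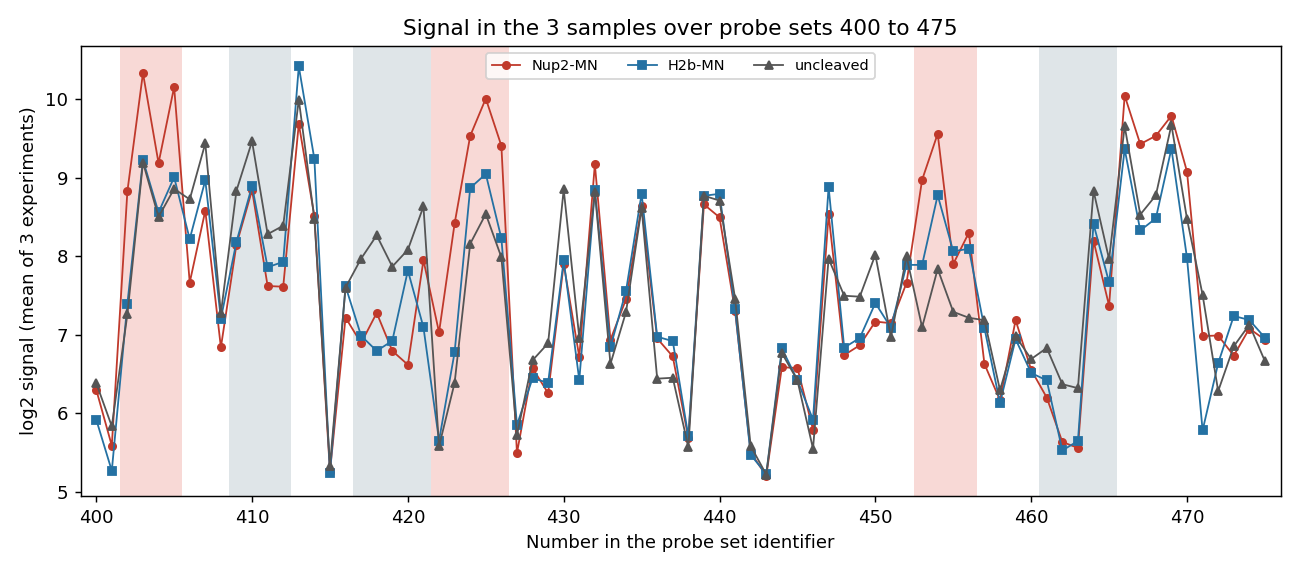
Log2 signal (y axis, the authors' mean of 3 experiments) in Nup2-MN, H2b-MN and uncleaved DNA against the number in the probe set identifier (x axis) for probe sets c6Mbo0400 to c6Mbo0475. Red shading marks the higher runs c6Mbo0402 to c6Mbo0405, c6Mbo0422 to c6Mbo0426 and c6Mbo0453 to c6Mbo0456 and grey shading the lower runs c6Mbo0409 to c6Mbo0412, c6Mbo0417 to c6Mbo0421 and c6Mbo0461 to c6Mbo0465 of Nup2-MN minus uncleaved; the uncleaved line lies below the Nup2-MN line in all of the red stretches and above it in all of the grey ones.

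Probe sets c6Mbo0402 to c6Mbo0405 were higher in Nup2-MN with H2b-MN close to uncleaved DNA. c6Mbo0402 read 8.83 in Nup2-MN, 7.40 in H2b-MN and 7.26 in uncleaved DNA. c6Mbo0403 read 10.33 in Nup2-MN, 9.23 in H2b-MN and 9.19 in uncleaved DNA. Nup2-MN stood above both other samples by more than 2-fold at these 2 and less far at the next. c6Mbo0404 read 9.19 in Nup2-MN, 8.56 in H2b-MN and 8.50 in uncleaved DNA. c6Mbo0405 read 10.15 in Nup2-MN, 9.01 in H2b-MN and 8.86 in uncleaved DNA. Over the 4, Nup2-MN minus uncleaved averaged 1.17 ± 0.37 (SD over the 4 probe sets) and H2b-MN minus uncleaved averaged 0.09 ± 0.06. The run ended in the largest fall between neighbours in this comparison. c6Mbo0406 read 7.67 in Nup2-MN, 8.22 in H2b-MN and 8.72 in uncleaved DNA, so that the Nup2-MN minus uncleaved difference was 1.30 at c6Mbo0405 and -1.06 at c6Mbo0406, a step of -2.35 where the median step had a size of 0.25.

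Probe sets c6Mbo0453 to c6Mbo0456 were higher in both cleaved samples. c6Mbo0453, the second highest of the 250 in Nup2-MN minus uncleaved (1.87), read 8.97 in Nup2-MN, 7.89 in H2b-MN and 7.10 in uncleaved DNA. c6Mbo0454 read 9.56 in Nup2-MN, 8.78 in H2b-MN and 7.84 in uncleaved DNA. At these 2 the H2b-MN signal lay between those of Nup2-MN and uncleaved DNA. c6Mbo0455 read 7.90 in Nup2-MN, 8.06 in H2b-MN and 7.29 in uncleaved DNA. c6Mbo0456 read 8.30 in Nup2-MN, 8.10 in H2b-MN and 7.22 in uncleaved DNA. At c6Mbo0455 and c6Mbo0456 the cleaved samples lay within 0.20 of each other. These 4 were also the only H2b-MN minus uncleaved run on the higher side, with differences of 0.77 to 0.94. The step from c6Mbo0452 to c6Mbo0453 (2.22) was the largest rise between neighbours in Nup2-MN minus uncleaved.

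Probe sets c6Mbo0330 to c6Mbo0339 held 2 groups of higher values around a dip, of which c6Mbo0333 and c6Mbo0334 were picked after their values were seen. c6Mbo0330 read 9.74 in Nup2-MN, 9.06 in H2b-MN and 8.57 in uncleaved DNA. c6Mbo0331 read 9.19 in Nup2-MN, 8.13 in H2b-MN and 8.08 in uncleaved DNA. At both, Nup2-MN exceeded uncleaved DNA by over 2-fold. c6Mbo0333 read 7.18 in Nup2-MN, 7.06 in H2b-MN and 8.12 in uncleaved DNA. c6Mbo0334 read 7.66 in Nup2-MN, 6.89 in H2b-MN and 8.21 in uncleaved DNA, so that both cleaved samples were lower there. The run c6Mbo0336 to c6Mbo0339 followed, with Nup2-MN minus uncleaved at 0.73 to 1.09 and H2b-MN minus uncleaved at 0.25 to 0.58. It had the lowest mean signals of the 4 runs, with a mean of 7.82 in Nup2-MN, 7.24 in H2b-MN and 6.88 in uncleaved DNA.

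The lower runs were more numerous, and the mean of all but 1 of them was smaller in size than that of any higher run. Nup2-MN minus uncleaved had 11, which held 64 of the 250 probe sets. The other 4 blocks of 250 consecutive numbers had 2 to 8 lower runs with 10 to 41 members and 2 to 7 higher runs. After centring on the medians the lower runs numbered 6, with 30 members, and the other blocks had 0 to 4. The cause of the excess was not tested. Of the 10 windows of 25 numbers, the lowest mean difference was -0.57 ± 0.28, in c6Mbo0251 to c6Mbo0275 (SD over 25 probe sets). It was -0.49 ± 0.36 in c6Mbo0301 to c6Mbo0325 and -0.44 ± 0.46 in c6Mbo0376 to c6Mbo0400.

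The longest lower run was c6Mbo0376 to c6Mbo0385, with 10 probe sets. Its first member, c6Mbo0376, read 5.70 in Nup2-MN, 6.15 in H2b-MN and 6.89 in uncleaved DNA. Its difference of -1.19 was the second lowest of the 250. c6Mbo0377 read 6.25 in Nup2-MN, 7.0 in H2b-MN and 7.22 in uncleaved DNA. c6Mbo0378 read 6.61 in Nup2-MN, 7.12 in H2b-MN and 7.40 in uncleaved DNA. In these 3, as in c6Mbo0379 and c6Mbo0380, the H2b-MN signal lay between the Nup2-MN and uncleaved signals. c6Mbo0379 read 6.50 in Nup2-MN, 7.0 in H2b-MN and 7.27 in uncleaved DNA. c6Mbo0380 read 6.22 in Nup2-MN, 6.73 in H2b-MN and 6.85 in uncleaved DNA. At the next of the run H2b-MN was the highest of the 3 samples. c6Mbo0381 read 6.28 in Nup2-MN, 7.16 in H2b-MN and 7.02 in uncleaved DNA. c6Mbo0382 read 7.46 in Nup2-MN, 7.93 in H2b-MN and 8.33 in uncleaved DNA. The last 3 differed in that the cleaved samples came together. c6Mbo0383 read 7.71 in Nup2-MN, 7.82 in H2b-MN and 8.66 in uncleaved DNA. c6Mbo0384 read 6.55 in Nup2-MN, 6.45 in H2b-MN and 7.35 in uncleaved DNA. c6Mbo0385 read 6.32 in Nup2-MN, 6.29 in H2b-MN and 7.26 in uncleaved DNA. Over the run, Nup2-MN minus uncleaved averaged -0.86 ± 0.16 and H2b-MN minus uncleaved averaged -0.46 ± 0.38 (SD over the 10).

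The next longest was c6Mbo0312 to c6Mbo0320, with 9 members at -1.18 to -0.56 and a mean of -0.76 ± 0.20. Its mean signal was 7.5 in Nup2-MN, 8.0 in H2b-MN and 8.26 in uncleaved DNA. The remaining 9 lower runs had 4 to 6 members and means from -1.06 (c6Mbo0417 to c6Mbo0421) to -0.67 (c6Mbo0461 to c6Mbo0465). They were c6Mbo0259 to c6Mbo0263, c6Mbo0285 to c6Mbo0289, c6Mbo0292 to c6Mbo0297, c6Mbo0323 to c6Mbo0327, c6Mbo0365 to c6Mbo0370, c6Mbo0409 to c6Mbo0412, c6Mbo0417 to c6Mbo0421, c6Mbo0461 to c6Mbo0465 and c6Mbo0481 to c6Mbo0484. Among them, c6Mbo0292 to c6Mbo0297 had the second lowest mean, -0.85, at a mean signal of 7.73 in Nup2-MN, 8.17 in H2b-MN and 8.58 in uncleaved DNA.

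The window c6Mbo0251 to c6Mbo0275 was even. Nup2-MN minus uncleaved ran from -0.96 to 0.05 there and had the lowest mean of all 50 windows of 25 along the chromosome, with the second smallest SD. H2b-MN minus uncleaved averaged -0.10 ± 0.46 in the same window. The window stayed among the lowest 3 of the 50 under centring, quantile normalization, removal of the trend with signal, averaging of 3 neighbours and leaving out the dimmest 10%. At the other extreme, c6Mbo0401 to c6Mbo0425 had the largest SD of the 50 windows (1.05) around a mean of -0.01, with 7 probe sets at least 2-fold higher and 4 at least 2-fold lower. The highest window mean among the 10 was 0.17 ± 0.73, in c6Mbo0451 to c6Mbo0475.

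**Figure D3:**
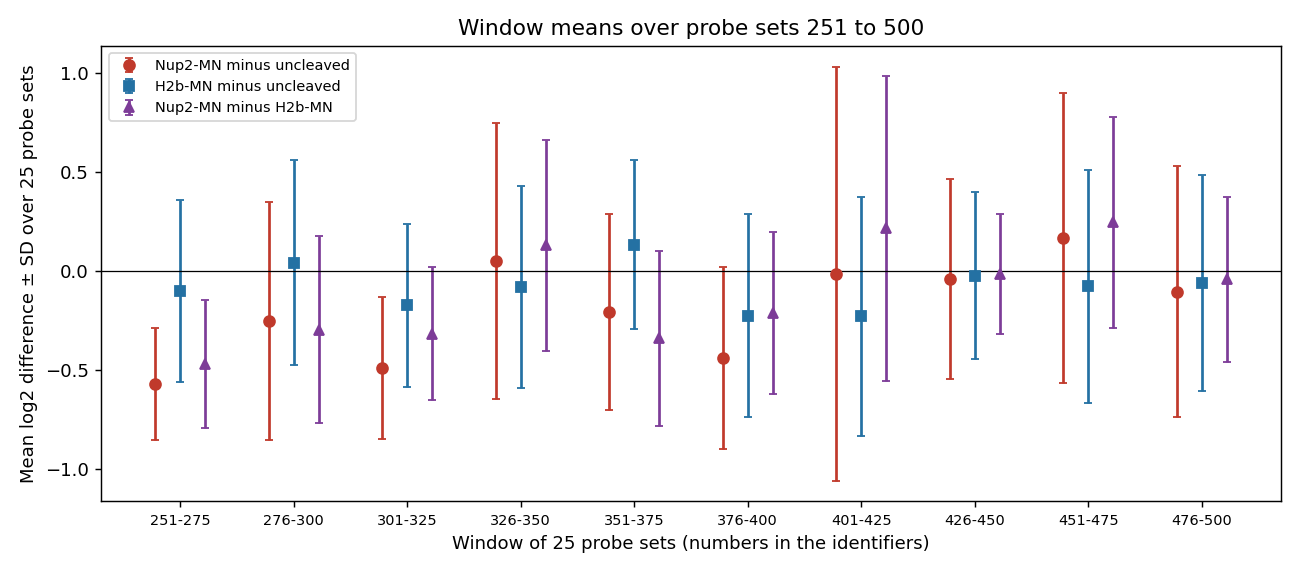
Mean log2 difference (y axis) in each of the 10 windows of 25 probe sets (x axis) for the 3 comparisons; bars are SDs over the 25 probe sets and not errors between experiments. Nup2-MN minus uncleaved is lowest in c6Mbo0251 to c6Mbo0275 at -0.57, and c6Mbo0401 to c6Mbo0425 has the widest bar, at 1.05.

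H2b-MN stands for cutting by a protein found along most chromatin. Its differences from uncleaved DNA spread less than those of Nup2-MN. They formed 1 run on each side at 0.5, and 3 higher and 6 lower runs at 0.3. Cleavage time and temperature differed between the 2 cleaved samples and cannot be told apart from the fusion. The median of H2b-MN minus uncleaved was -0.07, against -0.03 over the other 1000 probe sets. It was -0.12 to 0.04 in the other 4 blocks of 250. The SD was 0.51, against 0.65 for Nup2-MN minus uncleaved. At least 2-fold higher were 2 of the 250 (0.80%), against 2.80% over the whole array, and 6 (2.40%) were at least 2-fold lower, against 2.40%. At 0.5 or beyond, 31 (12.4%) were higher and 46 (18.4%) lower, against 13.4% and 15.2% over the whole array. Quantile normalization of the 3 columns gave 4 higher and 6 lower, which moved the share higher among those past 2-fold to 40% where it was 25%. Under it 1.6% of the 250 were higher, against 3.9% of the other 1000, and 2.4% were lower, against 2.5%. The other 4 blocks of 250 had 7 to 9 higher and 1 to 11 lower.

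The 2 higher probe sets were c6Mbo0277 and c6Mbo0486. c6Mbo0277 read 6.74 in Nup2-MN, 7.18 in H2b-MN and 5.98 in uncleaved DNA. c6Mbo0486 read 8.97 in Nup2-MN, 8.70 in H2b-MN and 7.58 in uncleaved DNA. c6Mbo0486 was the 1 probe set of the 250 at least 2-fold from uncleaved DNA on the same side in both cleaved samples, which share the uncleaved value (1.39 for Nup2-MN and 1.12 for H2b-MN). The lowest were c6Mbo0471 and c6Mbo0421, which is described above. c6Mbo0471 read 6.99 in Nup2-MN, 5.79 in H2b-MN and 7.51 in uncleaved DNA. The H2b-MN minus uncleaved difference of c6Mbo0471, -1.73, was the lowest on the array. The next number, c6Mbo0472, read 6.99 in Nup2-MN, 6.64 in H2b-MN and 6.28 in uncleaved DNA, a step of 2.08 that was the largest rise between neighbours for H2b-MN. The largest fall, -1.57, lay between c6Mbo0447 and c6Mbo0448. c6Mbo0447 read 8.53 in Nup2-MN, 8.88 in H2b-MN and 7.97 in uncleaved DNA. c6Mbo0448 read 6.74 in Nup2-MN, 6.84 in H2b-MN and 7.5 in uncleaved DNA, so that both cleaved samples went to the other side of uncleaved DNA.

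The 1 lower run of H2b-MN minus uncleaved was c6Mbo0323 to c6Mbo0326. c6Mbo0323 read 6.76 in Nup2-MN, 6.88 in H2b-MN and 7.81 in uncleaved DNA. c6Mbo0324 read 6.24 in Nup2-MN, 6.28 in H2b-MN and 6.95 in uncleaved DNA. The next 2 had higher signals in all 3 samples. c6Mbo0325 read 7.99 in Nup2-MN, 7.75 in H2b-MN and 8.58 in uncleaved DNA. c6Mbo0326 read 7.37 in Nup2-MN, 7.75 in H2b-MN and 8.31 in uncleaved DNA. Both cleaved samples lay below uncleaved DNA at all 4. At c6Mbo0323 and c6Mbo0324 they lay within 0.12 of each other.

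The probe sets past 2-fold in 1 cleaved sample had their own values in the other. At the 17 probe sets at least 2-fold higher in Nup2-MN, H2b-MN minus uncleaved ran from 0.03 to 1.12 with a median of 0.48. At the 9 at least 2-fold lower in Nup2-MN it ran from -0.98 to -0.01 with a median of -0.52. At the 6 at least 2-fold lower in H2b-MN, Nup2-MN minus uncleaved ran from -0.99 to -0.53 with a median of -0.68. Both differences contain the same uncleaved values, so these medians cannot be read as independent.

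Nup2-MN and H2b-MN were also compared with each other, though cleavage time and temperature differed between them and cannot be told apart from the fusion. Nup2-MN was above H2b-MN at 93 of the 250 probe sets (37.2%), in part in short stretches such as c6Mbo0402 to c6Mbo0405. This share was 45.2% over the other 1000 probe sets and 36% to 58% in the other 4 blocks of 250. The median difference was -0.15, against -0.05 over the other 1000 probe sets and -0.14 to 0.07 in the other 4 blocks of 250. At least 2-fold higher in Nup2-MN were 12 (4.80%), against 4.32% over the whole array, and 6 (2.40%) were at least 2-fold lower, against 1.84%. At 0.5 or beyond, 31 (12.4%) were higher and 58 (23.2%) lower, against 13.1% and 15.6% over the whole array. Centring adds 0.16 to each of these differences. It brought the median to 0.01 and the counts to 15 higher and 4 lower, so the share higher was 78.9% where it was 66.7%. After centring 6% of the 250 were higher, against 6.4% of the other 1000, and 1.6% were lower, against 1%. Quantile normalization gave 7 higher (2.8%, against 4.6%) and 4 lower (1.6%, against 1.4%). Of the 12 higher probe sets, 11 were numbered c6Mbo0402 to c6Mbo0471 and the other was c6Mbo0331.

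Higher runs of Nup2-MN minus H2b-MN were c6Mbo0329 to c6Mbo0332, c6Mbo0402 to c6Mbo0405 and c6Mbo0421 to c6Mbo0426. The highest probe sets were c6Mbo0423 (1.64) and c6Mbo0402 (1.43), both described above. Over c6Mbo0421 to c6Mbo0426 the difference was 0.66 to 1.64 with a mean of 1.11, and over c6Mbo0329 to c6Mbo0332 it was 0.62 to 1.06 with a mean of 0.80. Another 6 neighbours, c6Mbo0466 to c6Mbo0471, chosen after their values were seen, had 0.42 to 1.2 with a mean of 0.92 ± 0.31. There c6Mbo0467 read 9.43 in Nup2-MN, 8.33 in H2b-MN and 8.53 in uncleaved DNA. c6Mbo0470 read 9.08 in Nup2-MN, 7.98 in H2b-MN and 8.48 in uncleaved DNA. Across the 6, H2b-MN was below uncleaved DNA at every probe set and Nup2-MN was above it at 5, c6Mbo0471 being the other.

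Lower runs numbered 6, at c6Mbo0256 to c6Mbo0259, c6Mbo0268 to c6Mbo0272, c6Mbo0287 to c6Mbo0290, c6Mbo0313 to c6Mbo0317, c6Mbo0371 to c6Mbo0375 and c6Mbo0377 to c6Mbo0381, against 0 to 3 in the other 4 blocks of 250. Centring left 2 lower runs in probe sets c6Mbo0251 to c6Mbo0500 and 0 in each of the other blocks, and it brought the higher runs to 5 where there were 3. The run with the lowest mean, c6Mbo0287 to c6Mbo0290 (-0.99), ended in c6Mbo0290, the lowest of the 250, at 8.01 in Nup2-MN, 9.26 in H2b-MN and 8.43 in uncleaved DNA (-1.25). The second lowest was c6Mbo0313, at 6.68 in Nup2-MN, 7.88 in H2b-MN and 7.25 in uncleaved DNA (-1.20). At both, the uncleaved signal lay between those of the cleaved samples.

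Of the runs of 5, c6Mbo0371 to c6Mbo0375 had the lowest mean (-0.85). c6Mbo0371 read 6.12 in Nup2-MN, 6.94 in H2b-MN and 6.33 in uncleaved DNA. c6Mbo0372 read 6.83 in Nup2-MN, 7.82 in H2b-MN and 7.25 in uncleaved DNA. The next was the brightest of the run in H2b-MN and uncleaved DNA. c6Mbo0373 read 6.78 in Nup2-MN, 7.97 in H2b-MN and 7.58 in uncleaved DNA. c6Mbo0374 read 5.86 in Nup2-MN, 6.59 in H2b-MN and 6.28 in uncleaved DNA. c6Mbo0375 read 5.58 in Nup2-MN, 6.13 in H2b-MN and 5.90 in uncleaved DNA. In all 5 Nup2-MN was lowest, H2b-MN highest and uncleaved DNA between them. The run c6Mbo0268 to c6Mbo0272 was of 2 kinds. Both cleaved samples lay below uncleaved DNA at c6Mbo0268 and c6Mbo0269, and from c6Mbo0270 to c6Mbo0272 H2b-MN exceeded it by 0.71 to 0.93 while Nup2-MN lay within 0.05 of it. c6Mbo0271 read 7.26 in Nup2-MN, 8.20 in H2b-MN and 7.26 in uncleaved DNA. It was picked after its values were seen.

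Neighbours were more alike for Nup2-MN than for H2b-MN. Across the 249 pairs of adjacent numbers, which share arrays and may share DNA fragments, Pearson's r was 0.605 for the Nup2-MN difference from uncleaved DNA, 0.367 for that of H2b-MN and 0.602 between the cleaved samples. At a distance of 3 numbers these were 0.135, -0.126 and 0.348. The other 4 blocks of 250 had 0.490 to 0.651, 0.249 to 0.380 and 0.538 to 0.652 at a distance of 1, and the 250 lay inside those ranges for all 3. At a distance of 3 the other blocks had 0.173 to 0.293 for Nup2-MN minus uncleaved and -0.0993 to 0.0809 for H2b-MN minus uncleaved, and the 250 lay below both ranges. For Nup2-MN minus H2b-MN the other blocks had 0.247 to 0.434 at that distance, and the 250 lay inside this range. For the log2 signal itself r at a distance of 1 was 0.379 in Nup2-MN, 0.266 in H2b-MN and 0.311 in uncleaved DNA. These correlations describe the arrays and no test was made.

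**Figure D4:**
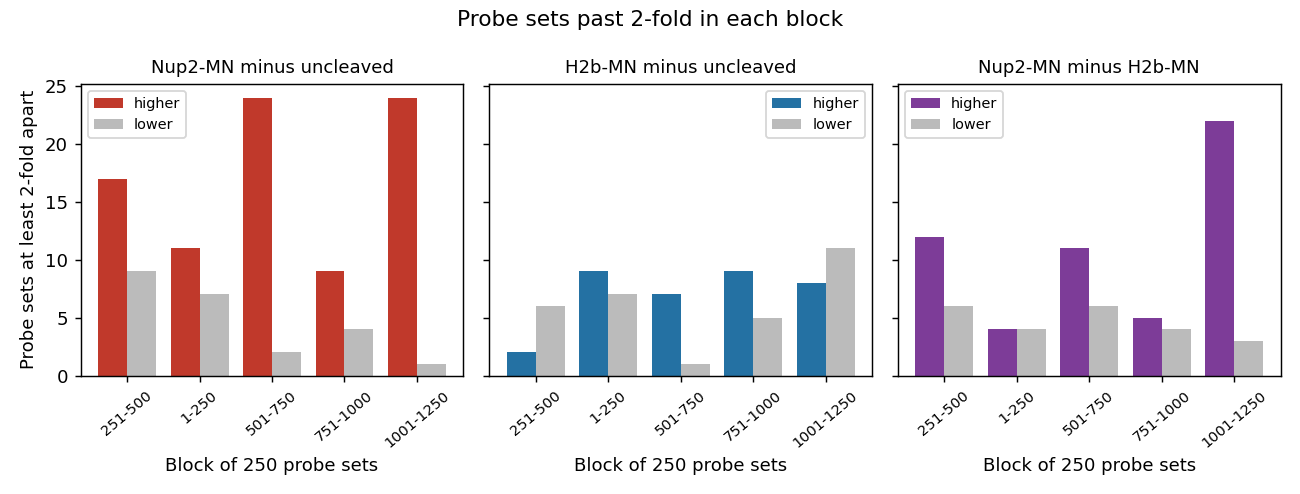
Number of probe sets (y axis) at least 2-fold higher or lower in each block of 250 consecutive numbers (x axis), with c6Mbo0251 to c6Mbo0500 at the left, for the 3 comparisons. Probe sets c6Mbo0251 to c6Mbo0500 had 17 higher and 9 lower in the left panel, 2 and 6 in the middle panel, and 12 and 6 in the right panel.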

How the data were processed

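Biotin-labelled genomic DNA of the 3 samples was measured on Affymetrix arrays that tile chromosome VI. Per the deposited README, probes were grouped into sets of at most 16, none of them over an MboI site. It also says that the authors obtained the log2 values by robust multi-array averaging in Bioconductor 1.5 and took the mean of 3 experiments. That method includes quantile normalization, but the medians of the deposited columns still differ. The number of arrays limits the precision.

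The 3 differences of log2 values were taken over all probe sets with no further normalization and no test, as each group has 1 column. Counts use a log2 difference of 1 (2-fold). Runs are 4 or more neighbours at 0.5 or beyond. The members, lists and rules were chosen with earlier results of these data known. Named probe sets are the 2 highest and 2 lowest of each comparison, all runs by their ends, with the members of the longest run of each comparison and direction, those 2-fold from uncleaved DNA on the same side in both cleaved samples, windows of 25, the largest steps, and c6Mbo0417 to c6Mbo0426. All others, single members of shorter runs included, were chosen after their values were seen. Of the identifiers, 0 matched the gene table used here. Alternatives were centring, quantile normalization, leaving out the dimmest 10%, subtracting a lowess trend (span 0.4), a 1.5-fold threshold, averaging 3 neighbours and blocks shifted by 50. The search for runs and the correlation of neighbours were tested on simulated data, and the other calculations were not. Software was matplotlib 3.10.9, statsmodels 0.14.6, scipy 1.17.1, pandas 2.3.3 and numpy 2.4.6 under Python 3.11.15.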

Additional observations from a re-analysis of the deposited data

Results flagged for a closer look

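The cleaved samples lay on opposite sides of uncleaved DNA at several places, c6Mbo0290 among them. c6Mbo0313 was the 1 probe set of the 250 at least 0.5 from uncleaved DNA on opposite sides in both samples. It lay at -0.58 in Nup2-MN and 0.63 in H2b-MN, a Nup2-MN minus H2b-MN difference of -1.20. Centring adds 0.15 to Nup2-MN minus uncleaved, so the Nup2-MN value of c6Mbo0313 then falls short of 0.5 in size. The difference between the samples was not tested. Its neighbours did not share it: c6Mbo0312 had Nup2-MN minus uncleaved at -0.56 and H2b-MN minus uncleaved at -0.48, and c6Mbo0314 had -1.18 and -0.52.

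Probe sets c6Mbo0371 to c6Mbo0375 were the 1 run of Nup2-MN minus H2b-MN whose every member lay below uncleaved DNA in Nup2-MN and above it in H2b-MN. The mean difference between the cleaved samples was -0.85, with Nup2-MN minus uncleaved at -0.80 to -0.20 and H2b-MN minus uncleaved at 0.22 to 0.61. This difference was not tested either.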

How the results depend on the processing

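With 1 value per group no result has an error between experiments, and positions and sequences were not analysed here. The lowest signals were 4.72 in Nup2-MN, 4.70 in H2b-MN and 4.73 in uncleaved DNA. Signal over background was not analysed. No paired analysis was possible because each group has 1 column and no result comes from a test.

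Nup2-MN against uncleaved DNA had 17 higher, 9 lower and a median of -0.32. Centring gave 3 lower and a median of -0.17, quantile normalization 4 lower, and subtraction of the lowess trend 5 lower and a median of -0.16. A 1.5-fold threshold gave 33 higher and 89 lower, and averaging 3 neighbours 9 and 3. H2b-MN against uncleaved DNA had 2 higher and 6 lower. Quantile normalization and the block shifted up by 50 each gave 4 higher, 1.5-fold gave 26 and 34, and averaging gave 0 and 1. Nup2-MN against H2b-MN had 12 higher, 6 lower and a median of -0.15. Quantile normalization gave 7 higher and a median of -0.092, the lowess subtraction a median of -0.060, and centring a median of 0.014, on the other side of 0. There 1.5-fold gave 25 and 43, and averaging 4 and 0. Threshold, averaging and centring act on these values by construction. The cause was not tested for the other settings. Another 30 counts stayed within 1.5 times. With the block shifted up by 50, the median of Nup2-MN against uncleaved DNA was -0.20, against -0.14 over the rest, so its gap to the rest was -0.067 where it was -0.21. The gap of H2b-MN against uncleaved DNA changed sign there, at 0.016 where it was -0.035. With the block shifted down by 50 the gaps were -0.21 for Nup2-MN and -0.035 for H2b-MN.

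Of the named probe sets, only the 2 at the top and the 2 at the bottom of each difference were followed through the settings. These kept their side of 0 under centring, quantile normalization, the lowess subtraction and averaging. With averaging, 8 of their values were no longer 2-fold. The other settings leave these values as they are or were not applied to them. Run counts were varied after the data were seen. The lowess subtraction gave 6 lower runs for Nup2-MN against uncleaved DNA and 3 for Nup2-MN against H2b-MN. Nup2-MN against uncleaved DNA had 4 higher and 11 lower runs at 0.5, 6 and 13 at 0.3, and 2 and 6 at 0.7. Nup2-MN against H2b-MN had 3 and 6 at 0.5, 5 and 6 at 0.3, and 0 and 2 at 0.7. H2b-MN against uncleaved DNA had 1 and 1 at 0.5, 3 and 6 at 0.3, and 1 and 0 at 0.7.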

Other observations

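In probe sets c6Mbo0298 to c6Mbo0304, picked after their values were seen, both cleaved samples lay within 0.26 of uncleaved DNA at every probe set, between the lower run c6Mbo0292 to c6Mbo0297 and c6Mbo0305, where Nup2-MN minus uncleaved was -0.53. c6Mbo0301, the brightest of c6Mbo0298 to c6Mbo0304, read 7.97 in Nup2-MN, 7.95 in H2b-MN and 7.91 in uncleaved DNA. Other members were dim. c6Mbo0298 read 5.17 in Nup2-MN, 5.14 in H2b-MN and 4.91 in uncleaved DNA. c6Mbo0304 read 5.51 in Nup2-MN, 5.47 in H2b-MN and 5.54 in uncleaved DNA. In the block, the 50 dimmest probe sets had an SD of 0.40 in Nup2-MN minus uncleaved, against 0.81 for the 50 brightest. Whether low signal accounts for the small differences was not tested.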
